A study of Mus musculus with 18 samples.

Results

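The response to the LXR agonist GW3965 was compared between long-treated neural cultures and embryonic stem (ES) cells treated for 24 h, gene by gene. For each gene the log2 fold change of day 16 cultures with GW3965 over day 16 cultures without it was taken, and the log2 fold change of ES cells with GW3965 over ES control cells was subtracted. All 23420 gene rows of the files were members, in 8 of the series' 18 libraries, and 17166 of them had enough counts to be tested. A difference is called lower where the day 16 response was smaller or more negative than the ES response, and higher where it was larger or less negative. The difference shares its libraries with both responses, so the 3 values of a gene are not independent of one another.

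All cells came from 1 wild type mouse ES line, E14, grown without feeder cells and with leukemia inhibitory factor. The ES control group (2 libraries, day 0) is labelled as the control of the ligand treatments. The ES 24h GW3965 group (2 libraries) had the ligand for 24 h at 1 µM. The day 16 group and the day 16 GW3965 group (2 libraries each) were differentiated through embryoid bodies, floating cell aggregates made without the inhibitory factor, with 5 µM all-trans retinoic acid over 4 days, and were then plated on laminin in N2 medium. The labels give dimethylsulfoxide as the vehicle without saying which libraries received it, and they give no duration of GW3965 at day 16, although the file names point to a start at day 8. Cell state and length of treatment therefore changed together between the 2 responses and cannot be told apart. The labels do not say whether the 2 replicates of a group were separate cultures, so p-values measure only the spread between these libraries, which may be technical.

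LXRα and LXRβ (Nr1h3 and Nr1h2) are nuclear receptors that sense oxysterols and bind DNA together with an RXR partner. When a ligand is bound they switch on genes for cholesterol efflux, for the lipid regulator SREBP-1c and for fatty acid synthesis, and they raise Mylip (IDOL), a ubiquitin ligase that acts on lipoprotein receptors. In the nervous system LXR is known for sterol export between glia and neurons and for a part in neuron formation.

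The 8 libraries held 20919761 to 44788592 gene counts and 17407 to 18775 genes with a count. Levels are given as CPM, counts scaled to a common library total with TMM factors, which compare a gene between libraries and not genes with each other. The labels call every sample embryonic stem cells, and the summed level of 24 pluripotency genes was 3968 and 3934 CPM in ES control but 307.5 and 266.5 CPM at day 16. The summed level of 20 pan-neuronal genes was 631.3 and 655.9 CPM in ES control and 3609 and 3562 CPM at day 16, and 20 mesenchyme and matrix genes summed to 18340 and 20530 CPM at day 16. The day 16 cultures were thus a mixture in which neuronal and connective tissue genes were both high. In such bulk RNA, fewer cells of a type and less RNA per cell cannot be told apart. Day 16 GW3965 replicate 2 stood apart from its partner: the ribosomal RNA precursor Rn45s was at 16490 CPM there, against 1210 CPM in replicate 1 and 898 to 1607 CPM in the other 6 libraries. Counts of that group's 2 libraries differed by a chi-square of 41.17 per gene, or 14.67 without Rn45s, against 2.826 to 4.721 in the other 3 groups, and results are therefore also given without that replicate.

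The 2 responses differed for 2532 of 17166 genes (14.8%; edgeR quasi-likelihood test, Benjamini-Hochberg adjusted p below 0.05). The difference was lower for 1697 genes (9.89%) and higher for 835 (4.86%), and it reached 2-fold in 312 of the lower and 135 of the higher genes. GW3965 changed 5446 genes at day 16 (31.7%), 2235 upward (13%) and 3211 downward (18.7%), and 55 genes in ES cells (0.32%), 53 upward (0.309%) and 2 downward (0.0117%). Both counts used 1 estimate of the spread shared by all groups. The day 16 GW3965 libraries lay further apart than either ES pair, so the 2 counts are not strictly comparable. Most of the called differences were of genes that changed at day 16 alone, with 1591 that fell at day 16 and 794 that rose there without a call in ES cells. Another 34 of the lower differences were of genes that rose in ES cells. Of these, 14 rose less at day 16, 16 had no call there and 4 fell there. The count of called differences was 1651 without day 16 GW3965 replicate 2, 1566 without ES 24h GW3965 replicate 1, 1653 without ES control replicate 1 and 1680 without day 16 replicate 2. The day 16 response had 3589 calls without day 16 GW3965 replicate 2, and the ES response had 31 without ES 24h GW3965 replicate 1, 28 without ES control replicate 1 and 33 without ES control replicate 2.

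**Figure D1:**
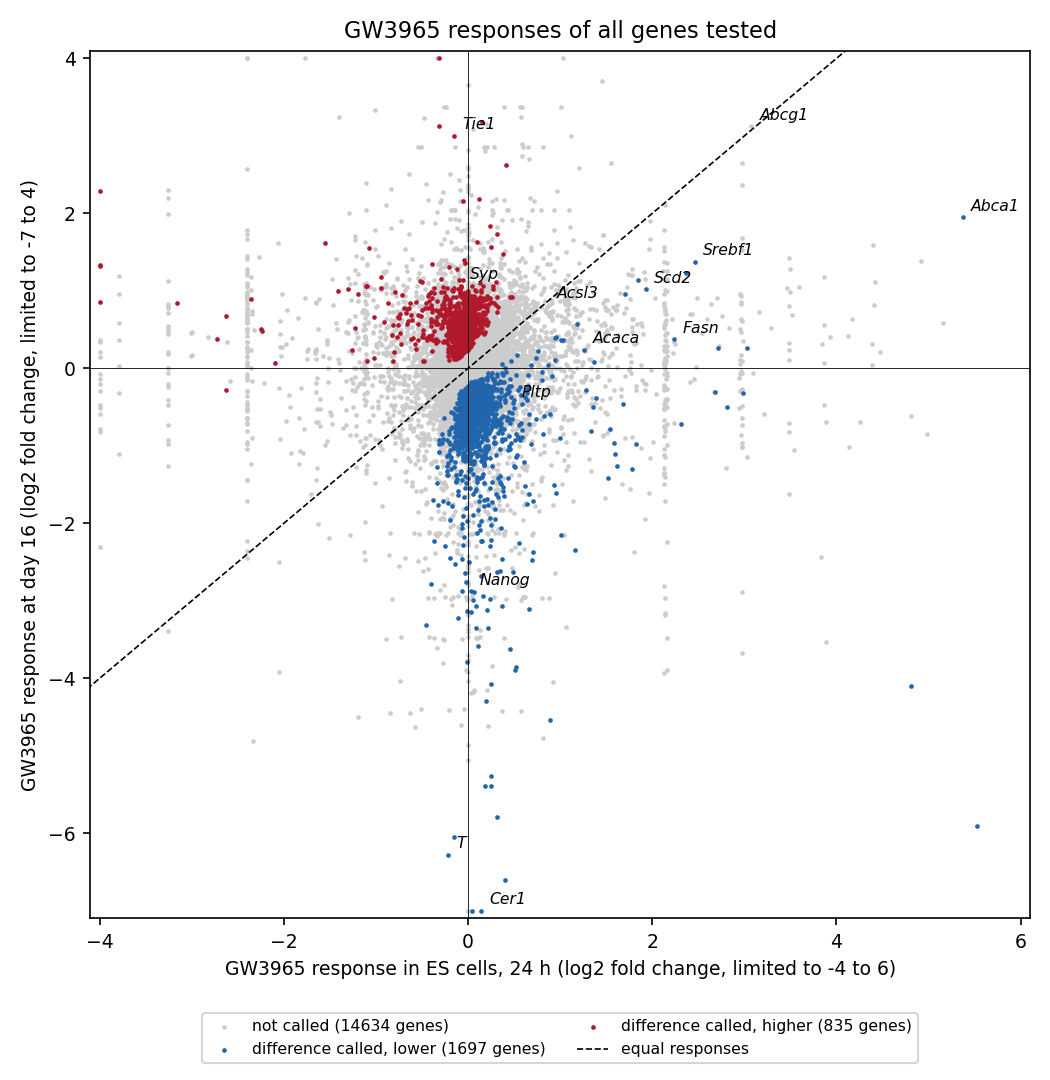
Each point is 1 of the 17166 genes tested, with its log2 GW3965 response in ES cells on the x axis and at day 16 on the y axis (values beyond the stated limits are drawn at the limit). Blue and red mark the 1697 lower and 835 higher differences, the dashed line marks equal responses, and Abca1 lies far below that line while Abcg1 lies on it.

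The cholesterol exporters Abca1 and Abcg1, both classic LXR targets, differed in how their responses compared: that of Abca1 was smaller at day 16, and that of Abcg1 was not called as different. Abca1 (chromosome 4, 53030787 to 53159895) loads cholesterol onto apolipoproteins. It read 8.79 and 7.51 CPM in ES control, 345 and 327 CPM in ES cells with GW3965, 92.6 and 86.9 CPM at day 16, and 361 and 334 CPM at day 16 with GW3965. The 2 ligand groups thus overlapped, while the ligand-free level was low in ES cells and intermediate at day 16. The response was 5.37 ± 0.10 on the log2 scale (SE) in ES cells and 1.95 ± 0.08 at day 16, a difference of -3.42 ± 0.13, or 10.7-fold (edgeR adjusted p = 1.23e-12). Without ligand Abca1 was higher at day 16 than in ES control by a log2 value of 3.46 ± 0.10 (edgeR adjusted p = 5.29e-17; 81.1% of all genes differed there). With ligand the 2 contexts were 0.05 ± 0.07 apart (edgeR adjusted p = 0.562; 82.9% of all genes differed). Abcg1 (chromosome 17, 31057675 to 31117988) passes cholesterol to lipoprotein particles. It read 23.2 and 23.8 CPM in ES control, 198 and 198 CPM with GW3965, 5.56 and 5.40 CPM at day 16, and 44.8 and 50.9 CPM at day 16 with GW3965. Each day 16 group lay well below the matching ES group, and the rise was 3.08 ± 0.10 in ES cells and 3.13 ± 0.12 at day 16 on the log2 scale, with a difference of 0.05 ± 0.15 (edgeR adjusted p = 0.881).

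**Figure D2:**
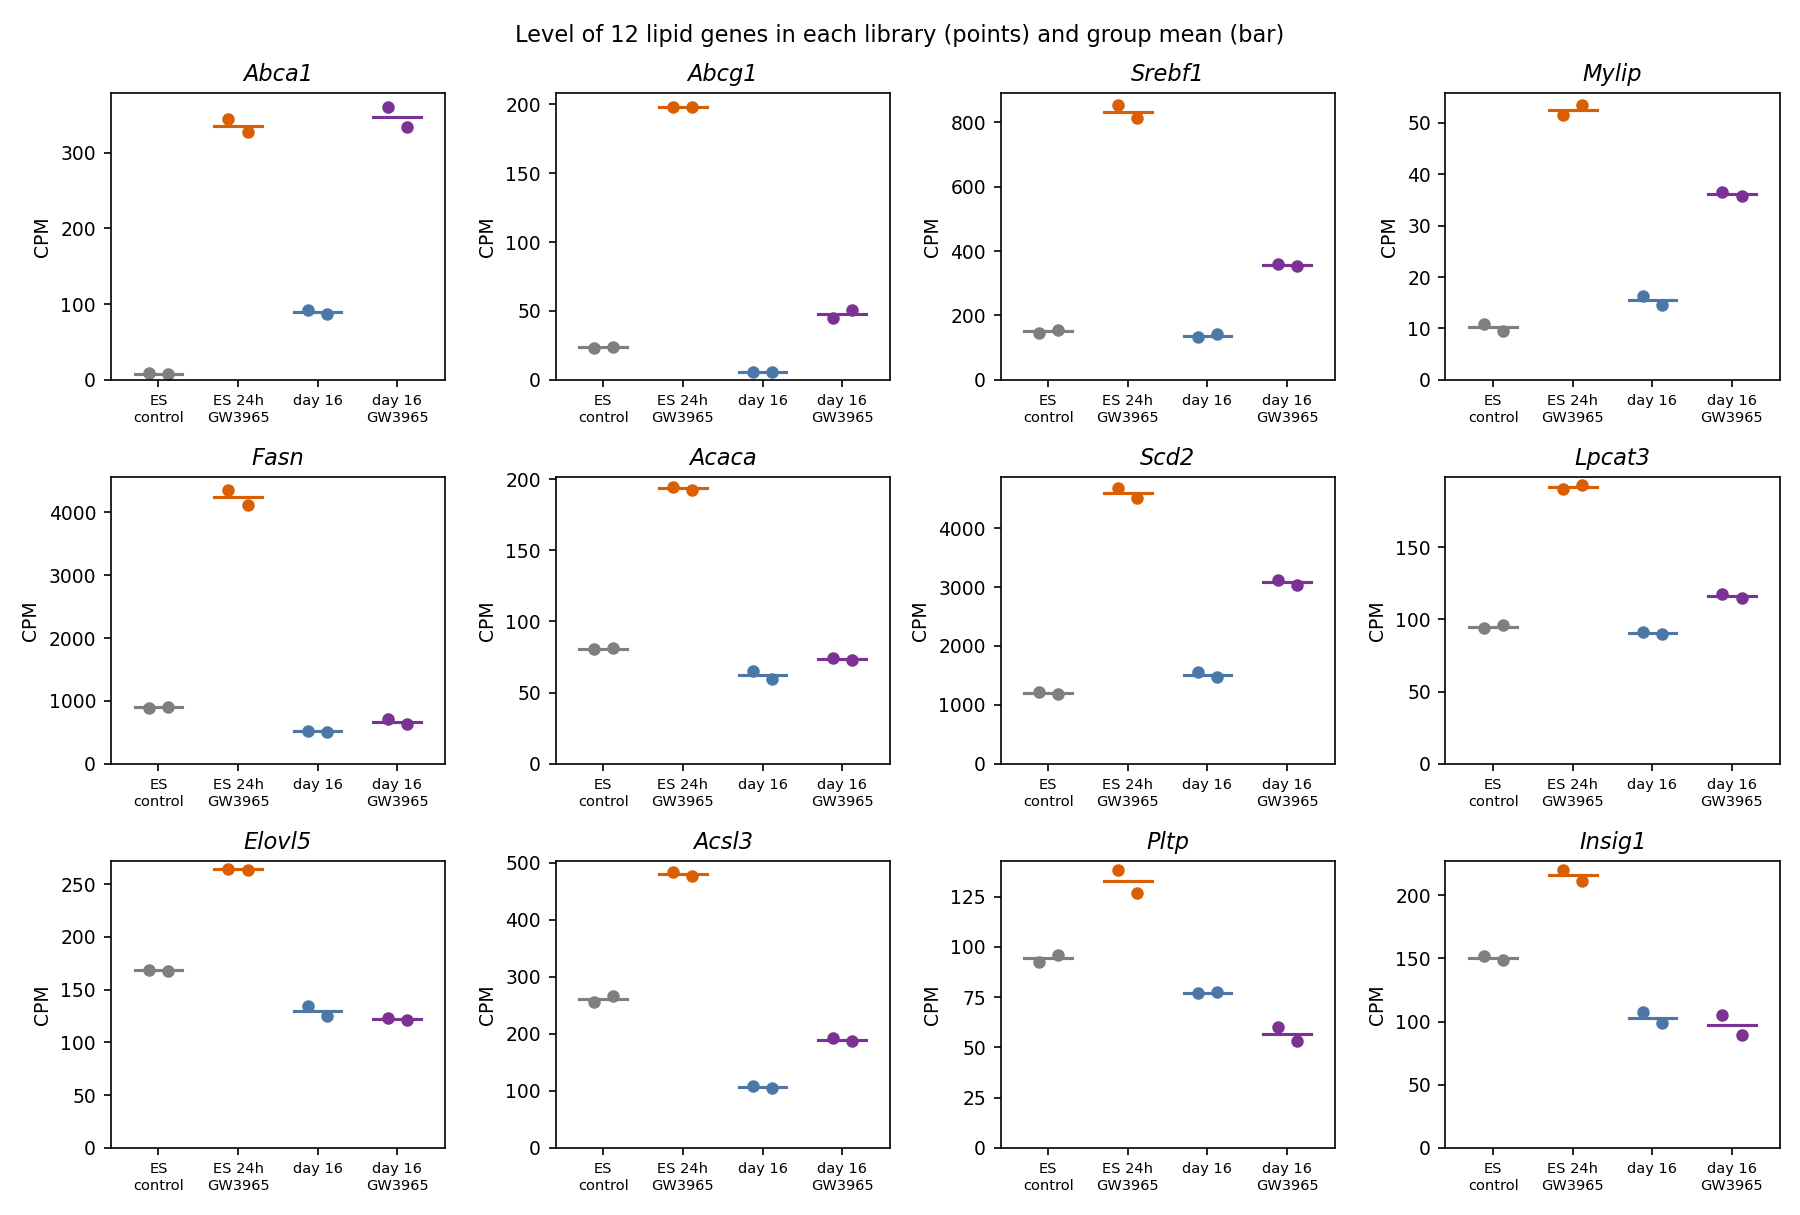
CPM of 12 lipid genes (y axis, from 0) in the 4 groups (x axis), with 1 point per library and a bar at the mean of 2 libraries. Abca1 ends at the same level in both ligand groups, Abcg1 rises 8.43-fold in ES cells and 8.75-fold at day 16 from a lower level, and Fasn, Acaca and Elovl5 rise steeply in ES cells but little or not at all at day 16.

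The regulators downstream of LXR rose in both contexts and less at day 16. Srebf1 (chromosome 11, 60199089 to 60222581), which encodes the SREBP-1 transcription factors, read 147 and 155 CPM in ES control, 853 and 812 CPM with GW3965, 132 and 142 CPM at day 16, and 358 and 353 CPM at day 16 with GW3965. The ligand-free groups lay close together and the ligand groups far apart, with responses of 2.46 and 1.38 on the log2 scale and a difference of -1.09 ± 0.16 (edgeR adjusted p = 0.000155). Mylip (chromosome 13, 45389742 to 45412022) read 10.9 and 9.56 CPM in ES control, 51.5 and 53.5 CPM with GW3965, 16.3 and 14.5 CPM at day 16, and 36.6 and 35.7 CPM at day 16 with GW3965. It started slightly higher at day 16 and ended lower, a difference of -1.13 ± 0.15 (edgeR adjusted p = 5.55e-05). Lpcat3, which remodels membrane phospholipids, read 94.0 and 96.1 CPM in ES control, 190.1 and 193 CPM with GW3965, 91.2 and 89.8 CPM at day 16, and 118 and 115 CPM at day 16 with GW3965. Its 4 groups separated in the same way as those of Srebf1, and its difference was -0.65 ± 0.08 (edgeR adjusted p = 2.25e-05).

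Promoter sequences of these genes are shown because LXR and RXR are known to bind a direct repeat spaced by 4 bases, and because genes with a called and with an uncalled difference both carry it. RefSeq windows of 300 bases (250 before to 50 after a start, GRCm38.p6) were searched on both strands for GGTNAN, any 4 bases and then GGTCA. Of 27025 genes with a window, 61 held the motif (0.226%). Among the 55 genes called in ES cells, 42 had a window that was searched, and 6 of these held it (14.3%): Abca1, Srebf1, Fasn, Acsl3, Prrg4 and Tmco4. The first 3 were also called in the difference, and the other 3 were not. Genes of a whole chromosome were left out of the 42 but kept in the 27025. The 2 percentages therefore come from unlike sets and are not strictly comparable. In the lines that follow, each sequence is read along the gene's own strand, and capitals mark the motif, which lies on the opposite strand and so reads TGACC, any 4 bases and then NTNACC. The Abca1 stretch is chr4:53159918-53159992 (minus strand), Srebf1 is chr11:60210609-60210683 (minus strand), Fasn is chr11:120824728-120824797 (minus strand) and Acsl3 is chr1:78657683-78657757 (plus strand).
Abca1: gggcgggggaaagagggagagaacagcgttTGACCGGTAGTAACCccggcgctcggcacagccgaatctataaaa
Srebf1: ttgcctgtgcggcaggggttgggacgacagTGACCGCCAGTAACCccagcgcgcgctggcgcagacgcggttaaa
Fasn: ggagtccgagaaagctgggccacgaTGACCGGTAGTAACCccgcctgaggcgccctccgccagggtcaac
Acsl3: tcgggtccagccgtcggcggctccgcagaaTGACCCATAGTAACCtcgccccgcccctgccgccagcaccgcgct
The motif began 67 bases before the RefSeq start of Abca1 and 182 before that of Srebf1. It began 225 bases before the start of Fasn and 112 before that of Acsl3. The Srebf1 stretch lies inside the gene span given above, so the start used for Srebf1 is an internal one. The letters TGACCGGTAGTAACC are shared by Abca1 and Fasn. A match describes these letters and is not evidence of binding.

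Genes of fatty acid synthesis and desaturation rose in ES cells in larger number than at day 16 and mostly by more. Of 25 tested members, 13 rose in ES cells (background 0.309%) and 11 rose at day 16 (background 13%). The difference was lower for 12 of 25 (background 9.89%) and not called for the other 13 (10 lower without day 16 GW3965 replicate 2), with a median of -0.37 against -0.05 for all genes. Fasn (chromosome 11, 120805846 to 120824547), the fatty acid synthase, read 888 and 903 CPM in ES control, 4360 and 4113 CPM with GW3965, 528 and 501 CPM at day 16, and 710 and 625 CPM at day 16 with GW3965. All day 16 libraries, with ligand or without, lay below the ES control libraries. The difference of -1.87 ± 0.10 (edgeR adjusted p = 1.33e-09) was 3.65-fold. Acaca, which makes malonyl-CoA for that enzyme, read 80.4 and 81.1 CPM in ES control, 194 and 193 CPM with GW3965, 64.9 and 59.6 CPM at day 16, and 74.4 and 72.6 CPM at day 16 with GW3965. The day 16 ligand libraries stayed below even the ES control libraries, and the difference was -1.02 ± 0.09 (edgeR adjusted p = 5.99e-07), although 30.4% of the 50-base words of Acaca occur in another gene and its counts are less certain for that reason.

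The stearoyl-CoA desaturases Scd1 and Scd2 rose in both contexts and less at day 16. Scd2 read 1226 and 1187 CPM in ES control, 4686 and 4509 CPM with GW3965, 1550 and 1475 CPM at day 16, and 3124 and 3034 CPM at day 16 with GW3965, a difference of -0.90 ± 0.08 (edgeR adjusted p = 6.54e-07). Scd1 read 297 and 286 CPM in ES control, 1064 and 1040 CPM with GW3965, 134 and 119 CPM at day 16, and 288 and 268 CPM at day 16 with GW3965, a difference of -0.71 ± 0.15 (edgeR adjusted p = 0.00316). Neither gene's groups overlapped within a context, and both about doubled at day 16, with folds of 2.04 and 2.20. Fads2 rose in both contexts and had a difference of -0.56 ± 0.10 (edgeR adjusted p = 0.000609). In contrast, Elovl5, Acss2, Lpin1 and Fads1 rose in ES cells without a call at day 16, where their responses lay between -0.09 and 0.14. The difference of Fads1 lost its call without ES 24h GW3965 replicate 1 (edgeR adjusted p = 0.0611). Elovl5, which elongates polyunsaturated fatty acids, read 169 and 168 CPM in ES control, 264 and 263 CPM with GW3965, 134 and 125 CPM at day 16, and 123 and 121 CPM at day 16 with GW3965. The ES groups lay far apart and the day 16 groups close together, and the difference was -0.73 ± 0.08 (edgeR adjusted p = 9.23e-06). Acsl3, an acyl-CoA synthetase that carries the motif, rose in both contexts: it read 255 and 267 CPM in ES control, 483 and 477 CPM with GW3965, 109 and 105 CPM at day 16, and 193 and 187 CPM at day 16 with GW3965. Its responses were 0.88 and 0.82, with a difference of -0.06 ± 0.11 that was not called (edgeR adjusted p = 0.812).

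LXR targets as a list were lower in the difference for 12 of 20 tested members, and the other 8 were not called (9 of 20 lower without day 16 GW3965 replicate 2). In ES cells 9 rose (background 0.309%), and at day 16 9 rose and 5 fell (background 13% and 18.7%). The background of lower differences was 9.89%. The 5 that fell at day 16 were Pltp, Lpl, Mlxipl, Abca7 and Apoc2, but only 1 of the list fell without day 16 replicate 1 or day 16 GW3965 replicate 2, and 3 without day 16 replicate 2 or day 16 GW3965 replicate 1. Pltp, a phospholipid transfer protein of lipoproteins, was 1 of 4 genes that GW3965 changed in opposite directions: it read 92.7 and 96.1 CPM in ES control, 138 and 127 CPM with GW3965, 77.0 and 77.6 CPM at day 16, and 60.1 and 53.2 CPM at day 16 with GW3965. The ligand groups moved apart in both contexts without overlap, upward by 0.49 ± 0.09 in ES cells and downward by 0.45 ± 0.09 at day 16 on the log2 scale, and the difference was -0.94 ± 0.12 (edgeR adjusted p = 5.76e-05). The other 3 such genes were Slc9a3r1, a scaffold of membrane transporters (difference -1.09 ± 0.09), Pik3ip1, a PI3-kinase inhibitor (-0.68 ± 0.09), and Farp1, a guanine nucleotide exchange factor (-0.51 ± 0.09), with edgeR adjusted p of 5.99e-07, 7.44e-05 and 0.000711. Apoe, the main lipoprotein apolipoprotein of brain, read 339.9 and 386 CPM in ES control, 417 and 423 CPM with GW3965, 90.6 and 101 CPM at day 16, and 79.1 and 73.0 CPM at day 16 with GW3965. Neither response passed the test, and the difference of -0.55 ± 0.17 (edgeR adjusted p = 0.0418) lost its call in 8 of 16 alternative settings (other filters, scalings and tests, and leaving out 1 library at a time), where its p reached 0.169.

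**Figure D3:**
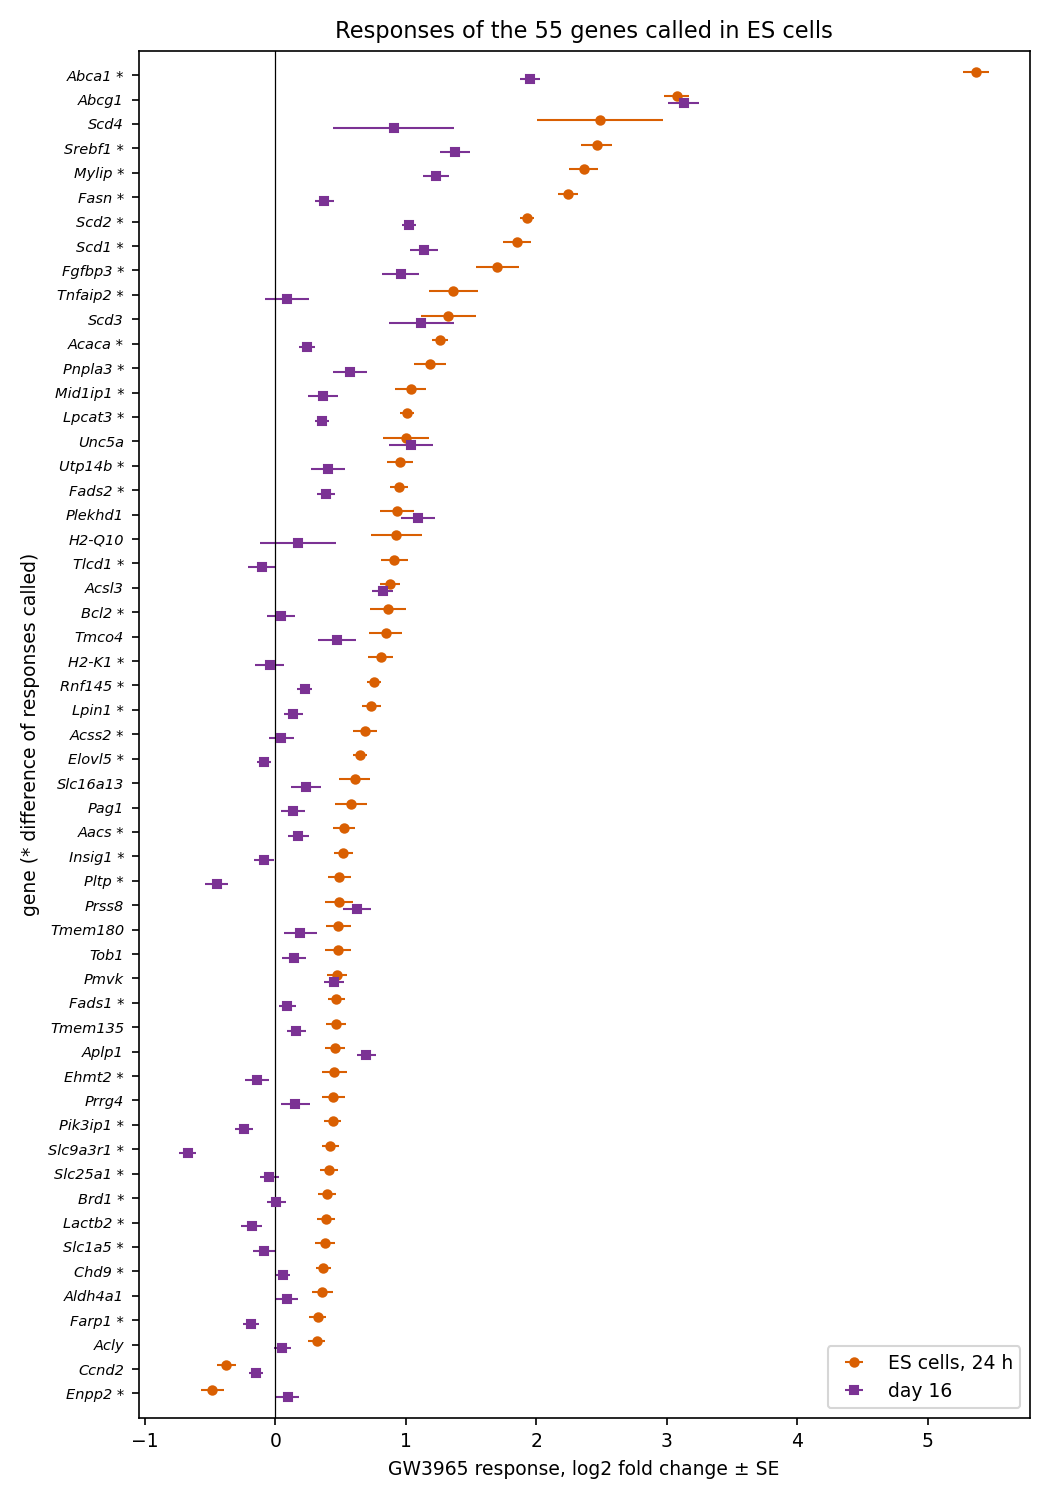
Log2 GW3965 responses ± SE (x axis) of the 55 genes called in ES cells (y axis, ordered by the ES response), in ES cells (circles) and at day 16 (squares). A star marks a called difference, and for Abcg1, Acsl3, Pmvk and Unc5a the symbols lie within 0.06 of each other.

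Of the 53 genes that rose in ES cells, 48 had a smaller response at day 16. The median response of the 53 genes was 0.737 in ES cells and 0.178 at day 16. Since these genes were chosen by the ES response, which is part of the difference, these counts are a description. Beside Abcg1 and Acsl3, several genes rose in both contexts without a called difference. Unc5a, a netrin receptor, read 5.76 and 5.10 CPM in ES control, 11.3 and 10.4 CPM with GW3965, 4.86 and 5.78 CPM at day 16, and 11.0 and 11.0 CPM at day 16 with GW3965, a difference of 0.04 ± 0.24 (edgeR adjusted p = 0.966). Pmvk, a mevalonate pathway kinase, had a difference of -0.02 ± 0.11, and Plekhd1 one of 0.16 ± 0.19 (edgeR adjusted p = 0.945 and 0.644). The responses in ES cells and at day 16 were 1.00 and 1.04 for Unc5a, 0.47 and 0.45 for Pmvk, and 0.93 and 1.09 for Plekhd1. Enpp2 (autotaxin), which makes lysophosphatidic acid, was the 1 gene that fell in ES cells with a called difference: it read 52.3 and 57.1 CPM in ES control, 37.0 and 41.8 CPM with GW3965, 53.0 and 55.6 CPM at day 16, and 58.4 and 57.7 CPM at day 16 with GW3965. Its level dropped in ES cells alone, and the difference was 0.58 ± 0.13 (edgeR adjusted p = 0.004).

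Of 23 tested cholesterol synthesis and uptake genes the difference was lower for 5 (background 9.89%), among them Insig1, Lss and Stard4, and not called for 18 (median -0.05, as for all genes). The count was 3 without day 16 replicate 1 or day 16 GW3965 replicate 2. Lss lost its call without day 16 replicate 1 or day 16 GW3965 replicate 2 (edgeR adjusted p up to 0.0782). Insig1, which holds SREBPs in the endoplasmic reticulum, rose in ES cells and not at day 16 (difference -0.61 ± 0.11, edgeR adjusted p = 0.000653). Hmgcs1 and Sqle had differences of 0.33 ± 0.12 and 0.02 ± 0.07 (edgeR adjusted p = 0.079 and 0.883), and Hmgcs1 gained a call in 5 of 16 alternative settings.

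Regulators, receptors and carriers of the pathway were counted against the same background of 9.89% lower and 4.86% higher. Among 11 SREBP regulators the difference was lower for 4 (Srebf1, Insig1, Tmem97 and Mbtps1; 2 without day 16 GW3965 replicate 2), and Srebf2, the main driver of cholesterol synthesis, had a difference of -0.26 without a call. Tmem97 lost its call without day 16 GW3965 replicate 2 (edgeR adjusted p = 0.0528). Among 16 LXR, RXR and RAR receptors and coregulators it was lower for 4, among them Rarg, Rara and Ppard. That count was 1 without ES control replicate 1 or ES 24h GW3965 replicate 1, and 2 without ES control replicate 2, either day 16 replicate or day 16 GW3965 replicate 2. Rarg, a retinoic acid receptor, read 54.5 and 61.4 CPM in ES control, 64.3 and 61.0 CPM with GW3965, 39.9 and 41.2 CPM at day 16, and 26.7 and 25.0 CPM at day 16 with GW3965, so that only the day 16 groups separated. Its difference was -0.77 ± 0.15 and that of Rara -0.52 ± 0.13 (edgeR adjusted p = 0.00145 and 0.0104). Rara lost its call without ES control replicate 1 or ES 24h GW3965 replicate 1 (edgeR adjusted p up to 0.0913). The LXR genes themselves were not called with all libraries: Nr1h2 read 72.1 and 70.7 CPM in ES control and 54.4 and 56.2 CPM at day 16 with a difference of -0.41 ± 0.19, and Nr1h3 read 1.58 and 1.62 CPM in ES control and 1.24 and 0.96 CPM at day 16 with a difference of 0.17 ± 0.48 (edgeR adjusted p = 0.169 and 0.877). Nr1h2 gained a call without the filter and in the fit of the 8 libraries (edgeR adjusted p down to 0.00717). Rxra and Rxrg had differences of -0.18 ± 0.12 and 0.11 ± 0.45 (edgeR adjusted p = 0.343 and 0.93). Of 19 apolipoproteins and lipoprotein receptors the difference was lower for 6, led by Mylip, Pltp and Lrp2, and higher for Clu and Lrp8. Neither higher call held in all settings, with that of Clu lost in 6. Fewer differences were lower without some single libraries. Among 11 genes of oxysterol formation and clearance the difference was lower for 1 and not called for the other 10.

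Among the largest lower differences were those of early embryonic genes whose residual level at day 16 was lower with GW3965. T (brachyury; chromosome 17, 8434423 to 8442496), a primitive streak transcription factor, read 186 and 174 CPM in ES control, 157 and 154 CPM with GW3965, 13.2 and 7.05 CPM at day 16, and 0.242 and 0 CPM at day 16 with GW3965. Its ES groups differed little beside the fall at day 16, and the difference was -6.06 ± 0.50 on the log2 scale (edgeR adjusted p = 5.99e-07). Wnt8a, a Wnt ligand of the same stage, read 24.2 and 24.7 CPM in ES control, 25.6 and 24.9 CPM with GW3965 and 1.56 and 1.35 CPM at day 16, and had no count at day 16 with GW3965. There it was at least 15.9-fold lower, set against a floor of 3 counts per library, and the edgeR adjusted p of the difference was 8.34e-07. Cer1, a Nodal and BMP inhibitor, read 7.03 and 4.94 CPM in ES control, 6.83 and 6.36 CPM with GW3965, 3.99 and 2.62 CPM at day 16, and 0.0302 and 0 CPM at day 16 with GW3965 (edgeR adjusted p = 6.22e-06). For all 3 genes the day 16 groups were apart in every library while the ES level hardly moved. The other genes among the 10 lowest were Mep1b, Gtsf1l, Foxn4, Eras, Padi3, Myh3 and Saa3, each under 1 CPM in some library. The call of Myh3, a fetal muscle myosin, rested on day 16 replicate 2 (23.1 CPM, against 0.658 in replicate 1). This call was lost without that library, and with limma-voom on all libraries (limma-voom adjusted p = 0.144). That of Gtsf1l was lost without day 16 GW3965 replicate 2 (edgeR adjusted p = 0.0589), that of Padi3 in 5 of 16 settings, and that of Saa3, without a count in ES control, in 10 of 16.

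Pluripotency genes followed the same pattern. The difference was lower for 11 of 24 tested members and not called for 13, and at day 16 13 fell and 2 rose (9 of 24 lower in the difference without day 16 GW3965 replicate 2). The median difference was -1.20. For comparison, 9.89% of all genes were lower in the difference, and 18.7% fell and 13% rose at day 16. Nanog (chromosome 6, 122707489 to 122714633) read 352.5 and 364 CPM in ES control, 365 and 367 CPM with GW3965, 7.29 and 4.18 CPM at day 16, and 0.666 and 0.827 CPM at day 16 with GW3965, a difference of -2.91 ± 0.32 (edgeR adjusted p = 1.16e-05). Lin28a, an RNA-binding regulator of let-7 processing, read 357 and 347 CPM in ES control, 350.5 and 343 CPM with GW3965, 45.8 and 26.4 CPM at day 16, and 5.26 and 5.26 CPM at day 16 with GW3965, a difference of -2.73 ± 0.28 (edgeR adjusted p = 6.22e-06). The ES groups of Lin28a overlapped and those of Nanog nearly met, and the day 16 groups were several-fold apart. Pou5f1 (Oct4) differed by -2.22 ± 0.24 and Tdgf1, a Nodal co-receptor, by -2.51 ± 0.30 (edgeR adjusted p = 9.23e-06 and 2.22e-05). Foxh1, the DNA-binding partner of Nodal signalling, and Trh, a neuropeptide gene high in ES cells, differed by -2.94 ± 0.36 and -3.05 ± 0.23 (edgeR adjusted p = 3.35e-05 and 1.48e-07). In the other direction, Esrrb and Nr5a2 rose at day 16 by 0.58 and 0.70, rises that lost their calls without day 16 replicate 2. Their differences of 0.45 and 0.31 were not called (edgeR adjusted p = 0.0825 and 0.46). The summed list fell from 307.5 and 266.5 CPM at day 16 to 186.7 and 191.7 CPM with GW3965, and whether fewer residual stem cells carried the change was not tested.

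**Figure D4:**
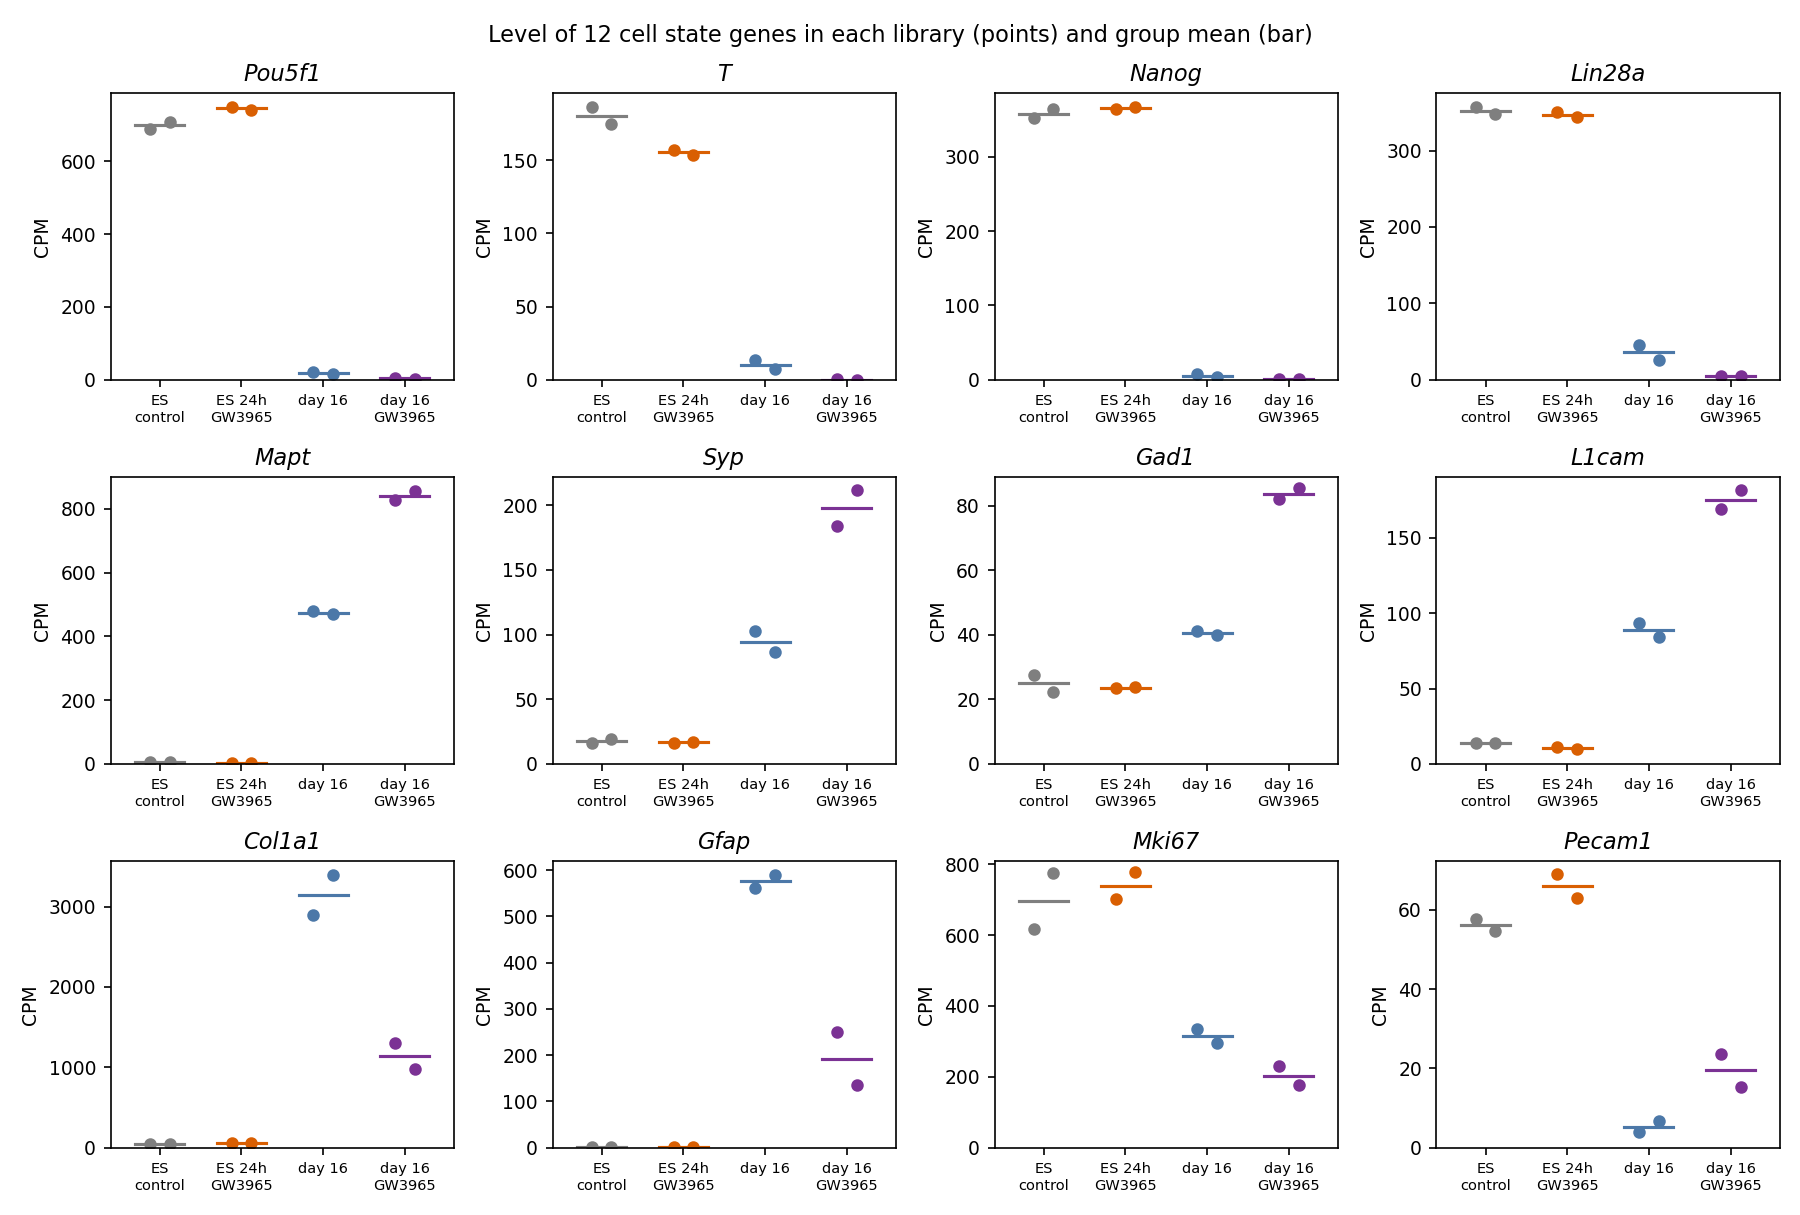
CPM of 12 cell state genes (y axis, from 0) in the 4 groups (x axis), with 1 point per library and a bar at the mean of 2 libraries. Pou5f1, T, Nanog and Lin28a are high in ES cells and lowest at day 16 with GW3965, Mapt, Syp, Gad1 and L1cam are highest there, and Col1a1, Gfap and Mki67 fall from day 16 to day 16 with GW3965.

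Neuronal lists had higher differences and no lower ones. Of 20 pan-neuronal genes, 18 rose at day 16 (background 13%) and the difference was higher for 11 (background 4.86%), with a median of 0.55. Of 20 genes of synaptic vesicles and release, all 20 rose at day 16 and the difference was higher for 13, with a median of 0.69 (8 of 20 without ES control replicate 2, and 13 without day 16 GW3965 replicate 2). L1cam, an axonal adhesion molecule, read 14.1 and 14.0 CPM in ES control, 11.1 and 9.89 CPM with GW3965, 93.7 and 84.3 CPM at day 16, and 169 and 182 CPM at day 16 with GW3965, a difference of 1.39 ± 0.14 (edgeR adjusted p = 3.8e-06). Mapt, the microtubule protein tau, read 4.44 and 4.50 CPM in ES control, 3.79 and 3.59 CPM with GW3965, 478 and 469 CPM at day 16, and 828 and 856 CPM at day 16 with GW3965, a difference of 1.10 ± 0.15 (edgeR adjusted p = 9.88e-05). The neuronal level was many times higher at day 16 than in ES cells, and only there did the ligand libraries lie clearly above the others. Rtn1 differed by 1.07 ± 0.14, the vesicle protein Syp by 1.14 ± 0.13 and the calcium sensor Syt4 by 1.19 ± 0.18 (edgeR adjusted p = 4.53e-05, 1.81e-05 and 0.000229), with 16.1% and 10.9% of the 50-base words of Syp and Syt4 shared with other genes. Cplx1, a complexin, differed by 1.11 ± 0.30 (edgeR adjusted p = 0.0178). That call was lost with limma-voom on all libraries (limma-voom adjusted p = 0.12), and without ES control replicate 2 or ES 24h GW3965 replicate 1. Markers of neuron types rose too, with fewer called differences: 11 of 17 GABAergic and 8 of 17 glutamatergic genes rose at day 16, and the difference was higher for 2 in each list. The glutamatergic count was 4 without ES 24h GW3965 replicate 1, and 1 without ES control replicate 1, ES 24h GW3965 replicate 2 or either day 16 replicate. Several members of the 2 lists had no count in ES control or in ES cells with GW3965: Gria1, Gria2, Neurod2, Neurod6, Dlx2, Dlx5, Dlx6, Sst and Pvalb. Their ES response is poorly estimated, so an uncalled difference there does not show equal responses. Gad1, the GABA-making decarboxylase, read 27.6 and 22.3 CPM in ES control, 23.4 and 23.8 CPM with GW3965, 41.2 and 39.9 CPM at day 16, and 82.0 and 85.6 CPM at day 16 with GW3965. Its day 16 ligand libraries were the highest of all 8, and the difference was 1.13 ± 0.12 (edgeR adjusted p = 9.39e-06). Among the glutamatergic genes, Gria4, a glutamate receptor subunit, and Dlg4, a scaffold of the postsynaptic density, differed by 0.75 ± 0.13 and 0.43 ± 0.13 (edgeR adjusted p = 0.000868 and 0.0261), of which Dlg4 lost its call in 5 settings.

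The 10 highest differences under the rule for named genes were less firm than the lowest. They included Cyp2j13, Lin7a, Tenm2, Ano4, Pkp1, Nr2f1, Cd93, Hecw1 and 5930403L14Rik, each with a group under 1 CPM. Of these all but Ano4 lost the call in at least 1 of 16 settings. For Ano4 and 5930403L14Rik the difference came mostly from ES libraries near the floor. Ano4 had 5 and 6 counts in ES control and 2 and 0 with GW3965. Its responses were -2.63 in ES cells, without a call, and 0.67 at day 16. Those of 5930403L14Rik were -2.10 and 0.06, neither of them called. Cd93 in contrast rose by 2.62 at day 16. Among genes at 1 CPM or more in both contexts, chosen after the values were seen, Amer3, Klhl14, Tmem63c and Slitrk3 were among the highest, together with vessel genes. Klhl14 lost its call in 5 of 16 settings. Pecam1, an endothelial junction protein that ES cells also express, read 57.8 and 54.8 CPM in ES control, 69.0 and 63.1 CPM with GW3965, 3.87 and 6.66 CPM at day 16, and 23.7 and 15.3 CPM at day 16 with GW3965. The level was low at day 16 and rose with the ligand in both libraries, with a difference of 1.61 ± 0.28 (edgeR adjusted p = 0.000625). Tie1, an endothelial receptor, read 1.58 and 1.74 CPM in ES control, 1.61 and 1.33 CPM with GW3965, 0.412 and 0.275 CPM at day 16, and 3.12 and 2.30 CPM at day 16 with GW3965 (difference 3.15 ± 0.48, edgeR adjusted p = 0.000197). Nos3 and Mmrn2, also of endothelium, differed by 1.42 ± 0.34 and 1.54 ± 0.38 (edgeR adjusted p = 0.00723 and 0.00924), and 20.0% of the 50-base words of Nos3 occur elsewhere. Mmrn2 lost its call without day 16 replicate 1 (edgeR adjusted p = 0.0564). The endothelial and blood list was not uniform: 5 of 11 tested members rose and 2 fell at day 16 (background 13% and 18.7%). The difference was higher for Pecam1 and Tie1 (background 4.86%). It was lower for Flt1, a VEGF receptor (-0.68 ± 0.16, edgeR adjusted p = 0.00759; background 9.89%).

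Connective tissue and dividing-cell genes fell at day 16 and had no call in ES cells. Their counts stand against 18.7% of all genes that fell at day 16 and 9.89% with a lower difference. All 20 mesenchyme and matrix genes fell at day 16, and the difference was lower for 15 (median -0.91) and for 11 with limma-voom. Fewer were also lower without single libraries, such as ES 24h GW3965 replicate 1, either ES control replicate or day 16 GW3965 replicate 2. Col1a1, a chain of type I collagen, read 48.7 and 52.1 CPM in ES control, 61.1 and 59.9 CPM with GW3965, 2893 and 3393 CPM at day 16, and 1302 and 979 CPM at day 16 with GW3965. The fall at day 16 exceeded the spread of both pairs, and the difference was -1.73 ± 0.23 (edgeR adjusted p = 6.84e-05). Lox, a collagen crosslinker, and Col6a2 differed by -1.36 ± 0.34 and -1.16 ± 0.22 (edgeR adjusted p = 0.00987 and 0.00155). Lox lost its call with limma-voom on all libraries (limma-voom adjusted p = 0.189), and without ES control replicate 1 or ES 24h GW3965 replicate 1. For the cell cycle all 20 genes fell at day 16 and all 20 had a lower difference (median -0.72), also without day 16 GW3965 replicate 2. Cenpa, a centromere histone, read 163 and 175 CPM in ES control, 176 and 184 CPM with GW3965, 35.2 and 32.1 CPM at day 16, and 18.8 and 16.5 CPM at day 16 with GW3965. The ES groups lay close together and the day 16 groups apart, with a difference of -1.01 ± 0.11 (edgeR adjusted p = 1.04e-05). The mitotic regulators Plk1 and Cdc20 differed by -0.99 ± 0.20 and -0.85 ± 0.10 (edgeR adjusted p = 0.00258 and 1.91e-05). Of 20 neural progenitor genes 12 fell at day 16 (4 without day 16 replicate 1 and 6 without day 16 GW3965 replicate 2), and the difference was lower for 4: Nes (-0.83 ± 0.14), Mki67 (-0.72 ± 0.15), Vim (-0.44 ± 0.09) and Notch1. The neuronal lists summed higher and the mesenchyme, cell cycle and pluripotency lists lower in the same libraries, and the part of cell composition in each was not tested.

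Retinoid targets, of interest because the cultures had received retinoic acid and RAR also pairs with RXR, were lower in the difference for 9 of 22 members (6 without day 16 GW3965 replicate 2) and higher for Meis2. The median was -0.69, and 11 fell and 2 rose at day 16 (background 18.7% and 13%). The background of the difference was 9.89% lower and 4.86% higher. Stra6, a retinol transporter, read 0.176 and 0.593 CPM in ES control, 1.25 and 1.13 CPM with GW3965, 9.75 and 10.1 CPM at day 16, and 4.60 and 4.68 CPM at day 16 with GW3965. Its level at day 16 was lower with GW3965 in both libraries. In ES cells it was near the floor and read higher with GW3965, without a call. Both changes enter the difference of -2.70 ± 0.42 (edgeR adjusted p = 0.000264), which is therefore not a measure of the day 16 fall alone. Crabp2 and Crabp1, carriers of retinoic acid in the cell, differed by -2.27 ± 0.21 and -1.21 ± 0.20 (edgeR adjusted p = 2.63e-06 and 0.000399). The retinoic acid hydroxylase Cyp26b1 (-2.83 ± 0.91) and Hoxb1 (-3.12 ± 1.01) were near 0 in ES cells, and each lost its call in 8 settings (edgeR adjusted p = 0.0422 and 0.0426 with all libraries). Rarb, itself induced by retinoic acid, rose at day 16 by 0.58 ± 0.12, and its difference of 0.49 ± 0.36 was not called (edgeR adjusted p = 0.41).

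Interferon and glucose genes were also lower in the difference, where the background was 9.89%. At day 16 18.7% of all genes fell and 13% rose. Of 16 interferon genes 13 fell at day 16 and 10 were lower in the difference (7 without day 16 GW3965 replicate 2, and 6 without ES control replicate 2, ES 24h GW3965 replicate 1 or day 16 replicate 2). Bst2 (tetherin), which holds virus particles at the cell surface, read 203 and 198 CPM in ES control, 225 and 212 CPM with GW3965, 41.0 and 52.8 CPM at day 16, and 21.7 and 13.8 CPM at day 16 with GW3965. The day 16 groups did not overlap, and the difference was -1.53 ± 0.23 (edgeR adjusted p = 0.000142). Ifit1 and Isg15 differed by -1.32 ± 0.34 and -1.28 ± 0.30 (edgeR adjusted p = 0.0124 and 0.00722), and Ifit1 lost its call without ES control replicate 2, ES 24h GW3965 replicate 1 or day 16 replicate 2. Of 18 hypoxia and glycolysis genes 12 fell and 1 rose at day 16 (6 and 1 without day 16 GW3965 replicate 2), and the difference was lower for 10, but for only 3 without day 16 GW3965 replicate 2 or ES 24h GW3965 replicate 1, 4 without ES control replicate 1, 5 without ES 24h GW3965 replicate 2 and 6 without either day 16 replicate. Slc2a1, the glucose transporter GLUT1, read 1575 and 1634 CPM in ES control, 1732 and 1637 CPM with GW3965, 323 and 261 CPM at day 16, and 160.3 and 153 CPM at day 16 with GW3965, a difference of -0.97 ± 0.19 that was called in all 16 settings (edgeR adjusted p = 0.00178). Adm and Car9, both induced by low oxygen, differed by -1.05 ± 0.34 and -1.02 ± 0.33 and lost the call in 8 and 10 settings (edgeR adjusted p = 0.0428 and 0.0446 with all libraries).

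**Figure D5:**
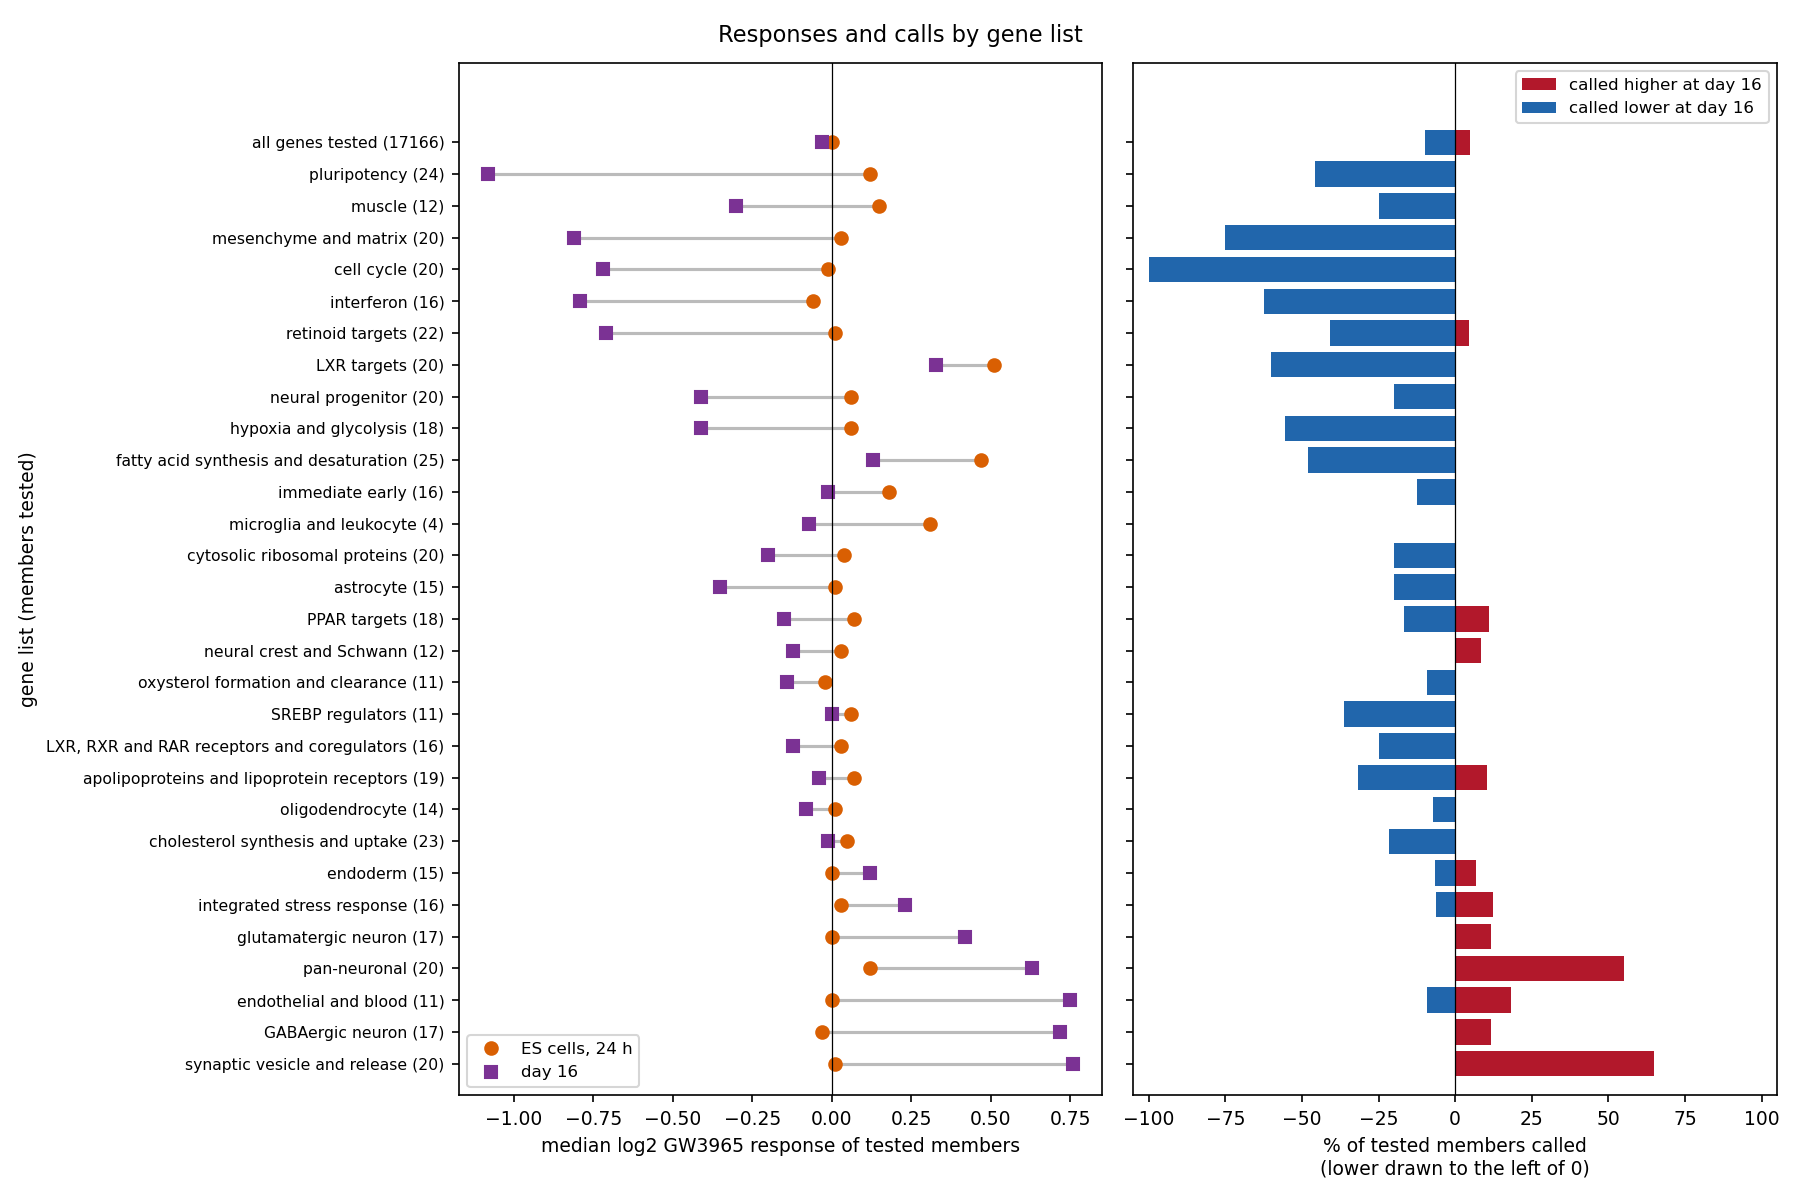
Gene lists (y axis, tested members in brackets) with the median log2 GW3965 response of their tested members in ES cells (circles) and at day 16 (squares) on the left, and the percentage of tested members called in the difference on the right (higher in red, lower in blue). Cell cycle, mesenchyme and interferon lists reach the largest lower shares, and synaptic and pan-neuronal lists the largest higher ones.

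Since treatment length and cell state differ together, the values of the day 17 cultures are given beside those above; the names of their files read as GW3965 for 24 h. There 6044 genes changed (35.2%), 2961 upward (17.2%) and 3083 downward (18%), and no test against day 16 or ES cells was made. The day 17 files list non-unique alignments (31.8 to 33.5% of their reads), which the other files give as 0. Abca1 rose by 1.14 ± 0.08 on the log2 scale at day 17, Abcg1 by 2.33 ± 0.14, Srebf1 by 2.03 ± 0.12 and Fasn by 1.33 ± 0.08 (edgeR adjusted p = 1.59e-09, 2.35e-10, 2.42e-10 and 1.32e-10). Beside these stand day 16 values of 1.95, 3.13, 1.38 and 0.38 and ES values of 5.37, 3.08, 2.46 and 2.24 for the same 4 genes. Of the 20 cell cycle genes 19 rose at day 17, where all 20 had fallen at day 16, and 23 of 23 cholesterol synthesis and uptake genes rose there, against 1 at day 16. Of the 20 synaptic genes 1 rose and 5 fell at day 17, where all 20 had risen at day 16. All 16 immediate early genes fell at day 17, while 1 rose and 2 fell at day 16. Among 16 integrated stress response genes 14 fell and 1 rose at day 17, while 1 fell and 7 rose at day 16. Hypoxia and glycolysis genes rose at day 17 in 13 of 18 cases, while 12 fell and 1 rose at day 16. For cytosolic ribosomal proteins 14 of 20 fell at day 17 and 10 at day 16.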

How the data were processed

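RNA-seq libraries of the 4 groups (2 each) were analysed. The authors deposited raw counts per gene symbol; per the submitters' processing notes, TopHat2 2.0.7, Cufflinks 2.0.2, HTSeq 0.6.0 and Cuffdiff 2.0.2 were used with mm10. Their order, the strand setting and the annotation are not given in the sources used here, so overlapping and antisense genes cannot be separated. The 5 HTSeq summary lines were left out (62.77 to 65.03% of reads had no gene). Genes passing filterByExpr were scaled by TMM (factors 0.9124 to 1.108) and fitted with edgeR 4.0.16 (R 4.3.3) by quasi-likelihood over all 18 libraries in 9 groups, so that all groups shared 1 estimate of the spread (residual degrees of freedom 9, prior 10.41, biological coefficient of variation 6.471%). Two-sided tests were used, with Benjamini-Hochberg adjustment over all 17166 genes and calls at an adjusted p below 0.05. limma 3.58.1 and DESeq2 1.42.0 served as alternatives. The code was tested on simulated data.

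The members and 29 gene lists were chosen with earlier results of these data known. Named genes were a fixed set of LXR, RXR and lipid genes, the 10 highest and 10 lowest called differences at 5 CPM or more in 1 group whose between-library ratios did not overlap, the 3 largest called members of each list with at least 2 calls, and genes called in opposite directions. Others were added after their values were seen: genes called in ES cells, genes at 1 CPM or more in both contexts, Crabp1, Crabp2, Pou5f1 and further list members. Errors are SE of the fit. Intervals and floors cover counting error only. Positions are GENCODE M21 (GRCm38), and shared 50-base words were counted over its transcripts. Replicate numbers did not pair the libraries (correlation between groups -0.00892 to 0.00624), so no block was used. Some genes are not reported here.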

Additional observations from a re-analysis of the deposited data

Results flagged for a closer look

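The GW3965 response differed between the day 16 cultures and ES cells, by the test of the difference itself, for 2532 genes. Among genes reported in every case, the log2 differences past that test were -3.42 for Abca1, -1.87 for Fasn, -1.13 for Mylip, -1.09 for Srebf1, -1.02 for Acaca, -0.90 for Scd2, -0.71 for Scd1, -0.65 for Lpcat3, -0.61 for Insig1 and -0.55 for Apoe. That of Apoe lost its call in 8 of 16 alternative settings, and neither of its responses passed the test. Genes that changed in opposite directions in the 2 contexts had log2 differences of -1.09 for Slc9a3r1, -0.94 for Pltp, -0.68 for Pik3ip1 and -0.51 for Farp1.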

How the results depend on the processing

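Leaving out 1 library at a time gave 1566 to 2652 called differences, 3589 to 4880 genes at day 16 and 28 to 44 in ES cells. The lone library left in a group is then assumed to vary like the others. Without the filter on low counts 164 genes were called in ES cells. With the replicate number as a block, counts were 2398, 5308 and 51, within 1.5 times of the unblocked ones. No filter, a stricter filter, limma-voom, DESeq2 (its size factors alone or its Wald test), a fit of the 8 libraries and, added after seeing the data, a fit without day 17 gave 2390 to 2939 called differences. The share of higher calls was 33% and reached 41.3% with DESeq2 size factors. Of 128 named genes called in the difference, 77 kept the call in all 16 settings and 51 lost it in at least 1, and of 27 not called, 8 gained one. No named difference changed to a called value of the other sign. With 2 libraries a group and a median SE of 0.166, small differences were not detectable.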

Other observations

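In other lists, to be read beside 9.89% lower and 4.86% higher differences over all genes, many counts rested on single libraries. Day 16 counts are to be read beside 13% of all genes that rose and 18.7% that fell. The difference was lower for Gfap, Sox9 and Gja1 among 15 astrocyte genes, of which 7 fell at day 16 (4 without either day 16 replicate, and 3 without day 16 GW3965 replicate 2). Only 1 difference was lower without ES control replicate 1 or ES 24h GW3965 replicate 1, where Sox9 lost its call (edgeR adjusted p up to 0.18). Gfap, the filament protein of astrocytes, read 0.791 and 1.15 CPM in ES control, 1.30 and 1.23 CPM with GW3965, 562 and 589 CPM at day 16, and 250.2 and 135 CPM at day 16 with GW3965, a difference of -1.96 ± 0.65 (edgeR adjusted p = 0.0496) that lost its call in 11 of 16 settings. Among 14 oligodendrocyte genes it was lower for Myrf. Of 12 muscle genes it was lower for Myh3, Tnnt1 and Des (-1.25 ± 0.17 for Des, edgeR adjusted p = 7.67e-05). Without day 16 replicate 2 the muscle list had 1 lower and 1 higher difference and its median moved from -0.98 to 0.13, and Tnnt1 lost its call in 6 settings (edgeR adjusted p up to 0.162). Of 15 endoderm genes it was lower for Cer1 and higher for Epcam (0.46 ± 0.09, edgeR adjusted p = 0.00202), and of 12 neural crest and Schwann genes it was higher for Foxd3, a call lost without ES control replicate 2, ES 24h GW3965 replicate 1, either day 16 replicate or day 16 GW3965 replicate 2. Of 13 microglia and leukocyte genes 4 could be tested and were not called. C1qa and Tyrobp had no count in either ES group or in either day 16 library without ligand. The list summed to only 7.74 and 7.63 CPM at day 16 and to 7.90 and 9.24 CPM at day 16 with GW3965.

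Of 16 integrated stress response genes 7 rose and 1 fell at day 16, and the difference was higher for Ddit3 and Asns (0.82 ± 0.21 and 0.49 ± 0.13) and lower for Ddit4 (-0.71 ± 0.21; edgeR adjusted p = 0.0119, 0.0119 and 0.0247). Without day 16 GW3965 replicate 2 only 1 of them rose at day 16 and all 3 differences lost their call (edgeR adjusted p = 0.0777, 0.0895 and 0.0733 in that order), while without replicate 1 10 rose and 7 differences were higher. The rises at day 16 numbered 3 without day 16 replicate 1 and 4 without replicate 2. Of 16 immediate early genes it was lower for Junb and Egr1 (-1.47 ± 0.31 and -0.54 ± 0.15, edgeR adjusted p = 0.00281 and 0.016), and Egr1 lost its call in 4 settings that each left out 1 library (ES control 2, ES 24h GW3965 2, day 16 2 or day 16 GW3965 1; edgeR adjusted p up to 0.073). PPAR targets split, with 2 of 18 higher, among them Fabp3, and 3 lower (Ucp2, Plin2 and Cpt2). For Fabp3, 37.3% of its 50-base words occur in other genes. In 4 settings that each left out 1 library both higher calls were lost, and Plin2 lost its call in 5 such settings. Most lower calls were lost without ES control replicate 1 or ES 24h GW3965 replicate 2. Of 20 cytosolic ribosomal protein genes 10 fell at day 16 and the difference was lower for 4, led by Rplp0 (-0.43 ± 0.13, edgeR adjusted p = 0.0289), although 33.1% of its 50-base words occur in other genes. All 4 calls were lost without ES control replicate 1 or either ES 24h GW3965 replicate, Rplp0 lost its call in 7 settings (edgeR adjusted p up to 0.141), and the 10 falls dropped to 2 without day 16 replicate 2 and to 3 and 4 without day 16 GW3965 replicates 1 and 2. Rn45s had a difference of 3.02 ± 0.82 (edgeR adjusted p = 0.0167) that rested on day 16 GW3965 replicate 2, without which the adjusted p was 0.788.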
